A study of Homo sapiens with 17 samples.

Results

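The MAP kinase feedback system was followed across human lymphoma cells through 10 genes: the phosphatase genes DUSP1, DUSP2, DUSP4, DUSP5, DUSP6 and DUSP10, the adaptor genes SPRY1, SPRY2 and SPRED1, and the transcription factor gene ETV5. They were taken by name from the 63677 genes of the count files, and the set was chosen on measured values, because DUSP2 and DUSP5 were lower both in Karpas-422 cells with A-485 and in BCL11A knockout clones of WSU-DLCL2. Values from those comparisons are therefore given as a description, without p-values for the members.

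Growth factor and antigen receptor signals pass through RAS, RAF and MEK to the MAP kinase ERK, and stress signals pass through related kinases to p38 and JNK. Active ERK induces several of its own inhibitors. Dual-specificity phosphatases (DUSPs) remove the activating phosphates from MAP kinases, Sprouty (SPRY) and Spred proteins act upstream on RAS and RAF, and ETV5 is an ETS-family factor whose gene is a transcriptional output of ERK. In B cells this loop shapes the size and length of the signal that follows antigen receptor engagement, and DUSP2 was described early as a phosphatase of activated lymphocytes.

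RNA was sequenced in 15 libraries, 3 in each of 5 groups: WSU-DLCL2 with A-485 for 48 h, Karpas-422 with A-485 for 48 h, untreated Karpas-422, 3 BCL11A knockout clones of WSU-DLCL2, and untreated WSU-DLCL2. Both are established lines from diffuse large B cell lymphoma, A-485 inhibits the acetyltransferase activity of p300 and CBP, and BCL11A is a zinc-finger protein that represses transcription in B cells. The clones are separate by label, the sources used here do not give the method of disruption, and no unedited clone was analysed. No label says whether the other replicates were separate cultures, so the spread behind each p-value is that between libraries and may be technical alone.

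The share of reads without a unique alignment, above or below 30%, set 2 kinds of library apart. They are called shallow and deep, since they also differed in depth. The 9 libraries of Karpas-422 and of WSU-DLCL2 with A-485 held 6689320 to 8897051 counts in genes, with no unique alignment for 43.0% to 43.9% of reads in WSU-DLCL2 with A-485, 48.8% to 49.0% in Karpas-422 with A-485 and 54.5% to 55.5% in untreated Karpas-422. Reads not aligned at all made up 14.1% to 14.6%, 2.51% to 2.86% and 2.59% to 2.65% in the same groups. Both shares run with compared groups, and their part in the results was not tested. The 6 libraries of the clones and of untreated WSU-DLCL2 held 21233752 to 37286727 counts, and 7.73% to 9.24% of their reads had no unique alignment. The kinds also treat single genes differently: HRAS was at 0 in each of the 9 shallow libraries and averaged 21.7 CPM (counts per 1000000 counts in genes) in the clones and 18.9 CPM in untreated WSU-DLCL2. A gene at 0 in the shallow libraries is therefore only listed at 0. WSU-DLCL2 with A-485 and untreated WSU-DLCL2 are of different kinds, treatment and kind cannot be told apart, and their levels stand side by side with no test. In replicate 3 of untreated WSU-DLCL2 the title names no A-485, while the treatment entry gives A-485. The library also stood apart: replicates 1 and 2 differed by a mean chi-square per gene of 2.66, against 201 and 212 for each of them with replicate 3. It was grouped by title, and the knockout comparison was made with and without it. BCL11A RNA does not check the knockout labels, since it had 58.8, 69.6 and 51.9 CPM in clones 1 to 3, against 46.8, 45.7 and 73.5 CPM in untreated replicates 1 to 3. The B cell markers CD79A, CD79B, PAX5, MS4A1 and CD22 each averaged 1 CPM or more in every group. Of 5 T and NK cell markers, 2 (CD3D and CD3G) did so in Karpas-422 and 0 in WSU-DLCL2.

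The promoters of 4 members are shown because their genes differ in the comparisons that follow. DUSP1 and DUSP2 were lower in both comparisons that chose the set, although edgeR called them in the clones only without untreated replicate 3. DUSP6 and SPRED1 were not called lower in the clones in either fit, but SPRED1 was called lower in Karpas-422 with TMM scaling. Each is the 250 bases before the RefSeq start on GRCh38.p14, 5′ to 3′ on the gene's strand. DUSP1 lies at chr5:172771196-172771445 and DUSP2 at chr2:96145441-96145690, both on the minus strand. DUSP6 lies at chr12:89352502-89352751 on the minus strand, and SPRED1 at chr15:38252586-38252835 on the plus strand. Capitals mark the cyclic AMP response element (CRE) TGACGTCA or its core TGACG, the E-box CACGTG, the TATA box TATAAA and the CCAAT box CCAAT, searched on both strands.
DUSP1: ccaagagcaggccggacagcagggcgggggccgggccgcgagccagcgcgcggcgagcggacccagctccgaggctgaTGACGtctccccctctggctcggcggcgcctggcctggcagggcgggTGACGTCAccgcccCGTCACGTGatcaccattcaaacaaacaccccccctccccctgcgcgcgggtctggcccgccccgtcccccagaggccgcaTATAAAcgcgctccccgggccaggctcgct
DUSP2: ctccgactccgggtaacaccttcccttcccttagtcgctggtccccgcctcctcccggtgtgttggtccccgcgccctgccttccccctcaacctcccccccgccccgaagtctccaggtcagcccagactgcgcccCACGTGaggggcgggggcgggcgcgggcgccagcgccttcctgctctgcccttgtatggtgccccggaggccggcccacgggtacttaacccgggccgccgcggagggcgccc
DUSP6: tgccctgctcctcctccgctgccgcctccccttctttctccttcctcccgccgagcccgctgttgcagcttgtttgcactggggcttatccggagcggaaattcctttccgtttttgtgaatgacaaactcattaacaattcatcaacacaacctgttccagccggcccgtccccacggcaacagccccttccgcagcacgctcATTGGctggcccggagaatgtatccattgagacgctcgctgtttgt
SPRED1: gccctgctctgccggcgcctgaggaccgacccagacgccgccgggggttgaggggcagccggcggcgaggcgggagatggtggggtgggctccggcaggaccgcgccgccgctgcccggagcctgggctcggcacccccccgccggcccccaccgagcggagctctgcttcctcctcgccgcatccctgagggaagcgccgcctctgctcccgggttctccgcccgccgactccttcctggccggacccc

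The DUSP1 window held a full CRE 125 to 118 bases before the start, an E-box from 108 to 103 that overlapped a CRE core, and a TATA box from 30 to 25. A full CRE was found in 1.65% of 35116 windows of the same length, its core in 21.2%, an E-box in 6.34% and a TATA box in 10.7%. The DUSP2 window held an E-box from 113 to 108 bases before the start and no CRE or TATA match. GC boxes (GGGCGG), found in 42.6% of windows, numbered 4 at DUSP1, 3 at DUSP2 and 1 at SPRED1. DUSP6 held 1 CCAAT box, a motif found in 32.0% of windows. None of the 4 windows matched the AP-1 site TGANTCA, the ETS site CCGGAAG or a CArG box, which were found in 6.57%, 8.52% and 1.16% of windows. These matches describe letters and not binding. A promoter was found in the RefSeq table for 7 of the 10 members. DUSP10, called lower in the clones without replicate 3, is not shown. Its windows held no CRE, E-box or TATA box, but 4 and 0 CCAAT boxes and 3 and 1 GC boxes.

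The first comparison asked how the members differed in Karpas-422 cells with A-485. The inducible nuclear phosphatases DUSP1, DUSP2, DUSP4 and DUSP5 were all lower, DUSP2 20.7-fold and DUSP4 14.3-fold after TMM scaling, which adjusts for library composition. DUSP6, the cytoplasmic ERK phosphatase, and DUSP10, a phosphatase of p38 and JNK, were not called. SPRED1 and ETV5 were called lower by small amounts that depended on the scaling.

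DUSP2 had 2.05, 2.25 and 1.05 CPM in replicates 1 to 3 with A-485, against 33.0, 24.8 and 26.5 CPM in untreated cells. DUSP4, a nuclear phosphatase of ERK, p38 and JNK, had 44.4, 39.9 and 40.2 CPM with A-485, against 443, 460 and 439 CPM in untreated cells. For both genes every treated library lay below every untreated library, as for 34.9% of all genes tested. On the log2 scale, with TMM scaling, DUSP2 differed by -4.37 ± 0.20 (SE, n = 3 each) and DUSP4 by -3.84 ± 0.07. These are read levels in bulk RNA, where fewer cells of a kind and less RNA per cell cannot be told apart.

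DUSP5, which dephosphorylates ERK in the nucleus, had 24.5, 23.3 and 20.1 CPM with A-485, against 45.8, 51.1 and 41.9 CPM in untreated cells. DUSP1, an immediate-early phosphatase that acts on p38, JNK and ERK, had 14.2, 13.3 and 13.2 CPM with A-485, against 21.4, 23.9 and 22.4 CPM in untreated cells. Again the groups did not overlap, with the treated libraries lower, as for 34.9% of all genes tested. The log2 differences were -1.44 ± 0.11 for DUSP5 and -1.14 ± 0.12 for DUSP1.

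DUSP6 had 77.6, 81.3 and 80.8 CPM with A-485, against 71.8, 57.7 and 60.6 CPM in untreated cells, a log2 difference of -0.07 ± 0.07 after TMM scaling and of 0.33 with library sizes alone. DUSP10 was at low levels, 2.18, 1.69 and 1.28 CPM with A-485, against 0.977, 1.15 and 1.73 CPM in untreated cells, a log2 difference of 0.02 ± 0.35. Neither was called, and both pairs of groups overlapped on the TMM scale. SPRED1, which inhibits RAS activation through neurofibromin, had 357, 353 and 332 CPM with A-485, against 340, 352 and 345 CPM in untreated cells. ETV5 had 489, 470 and 457 CPM with A-485, against 382, 426 and 406 CPM in untreated cells. On these totals the 2 genes were level or higher, but TMM scaling gave log2 differences of -0.40 ± 0.06 and -0.19 ± 0.06, both called lower, while library sizes alone gave 0.01 and 0.23. TMM and library sizes put the median of all genes at 0.08 and 0.49, so that the DUSP6, SPRED1 and ETV5 directions flip with the scaling. ETV5 also lost its call when A-485 replicate 2 or 3 or untreated replicate 2 was left out, at log2 differences of -0.19, -0.16 and -0.13.

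SPRY1 and SPRY2, the Sprouty genes, were listed at 0 in all 6 Karpas-422 libraries. Of the 8 members that passed the filter on low counts, 6 were called lower and 0 higher at an adjusted p of 0.05. Of the 11846 genes tested, 33.7% were called lower and 37.6% higher. The set was chosen because DUSP2 and DUSP5, among the 6, were lower here, so the count of members is a description. The members' median log2 difference was -0.77, against 0.08 over all genes tested. With library sizes alone the calls were 4 lower (DUSP1, DUSP2, DUSP4 and DUSP5) and 2 higher (DUSP6 and ETV5), where 19.3% of all genes were called lower and 54.6% higher. Calls in this comparison also moved with the number of annotated transcripts. Of genes with 1 or 2 transcripts 37.9% were called lower, against 46.6% of those with 3 to 5 and 27.5% of those with over 5. In the same classes 33.6%, 26.5% and 43.4% were called higher. DUSP1 has 1 annotated transcript and DUSP2, DUSP4 and DUSP5 have 2 each. The part of this in their values, and in those of the pathway lists below, was not tested. Markers of other cell types moved too: the 5 T and NK cell markers summed to 528 to 563 CPM with A-485, against 634 to 674 CPM in untreated cells, nearly all of it CD3G and CD3D, with CD2 at 0. The 5 epithelial and fibroblast markers summed to 177 to 193 CPM with A-485, against 381 to 428 CPM in untreated cells, all of it DCN. The 5 myeloid markers summed to 6.63 to 8.47 CPM with A-485, against 2.01 to 4.52 CPM in untreated cells, nearly all of it CD33, with ITGAM at 0. Of the B cell markers, PAX5 lay at 2077 to 2312 CPM with A-485, against 1640 to 1946 CPM in untreated cells, and CD79A at 578 to 729 CPM, against 473 to 569 CPM. CD22 lay at 0.466 to 1.67 CPM with A-485, against 5.18 to 6.96 CPM in untreated cells, and CD79B and MS4A1 overlapped. The part of these markers in the result was not tested. BCL11A itself had 75.1, 76.0 and 74.6 CPM with A-485, against 147, 134 and 147 CPM in untreated Karpas-422.

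**Figure D1:**
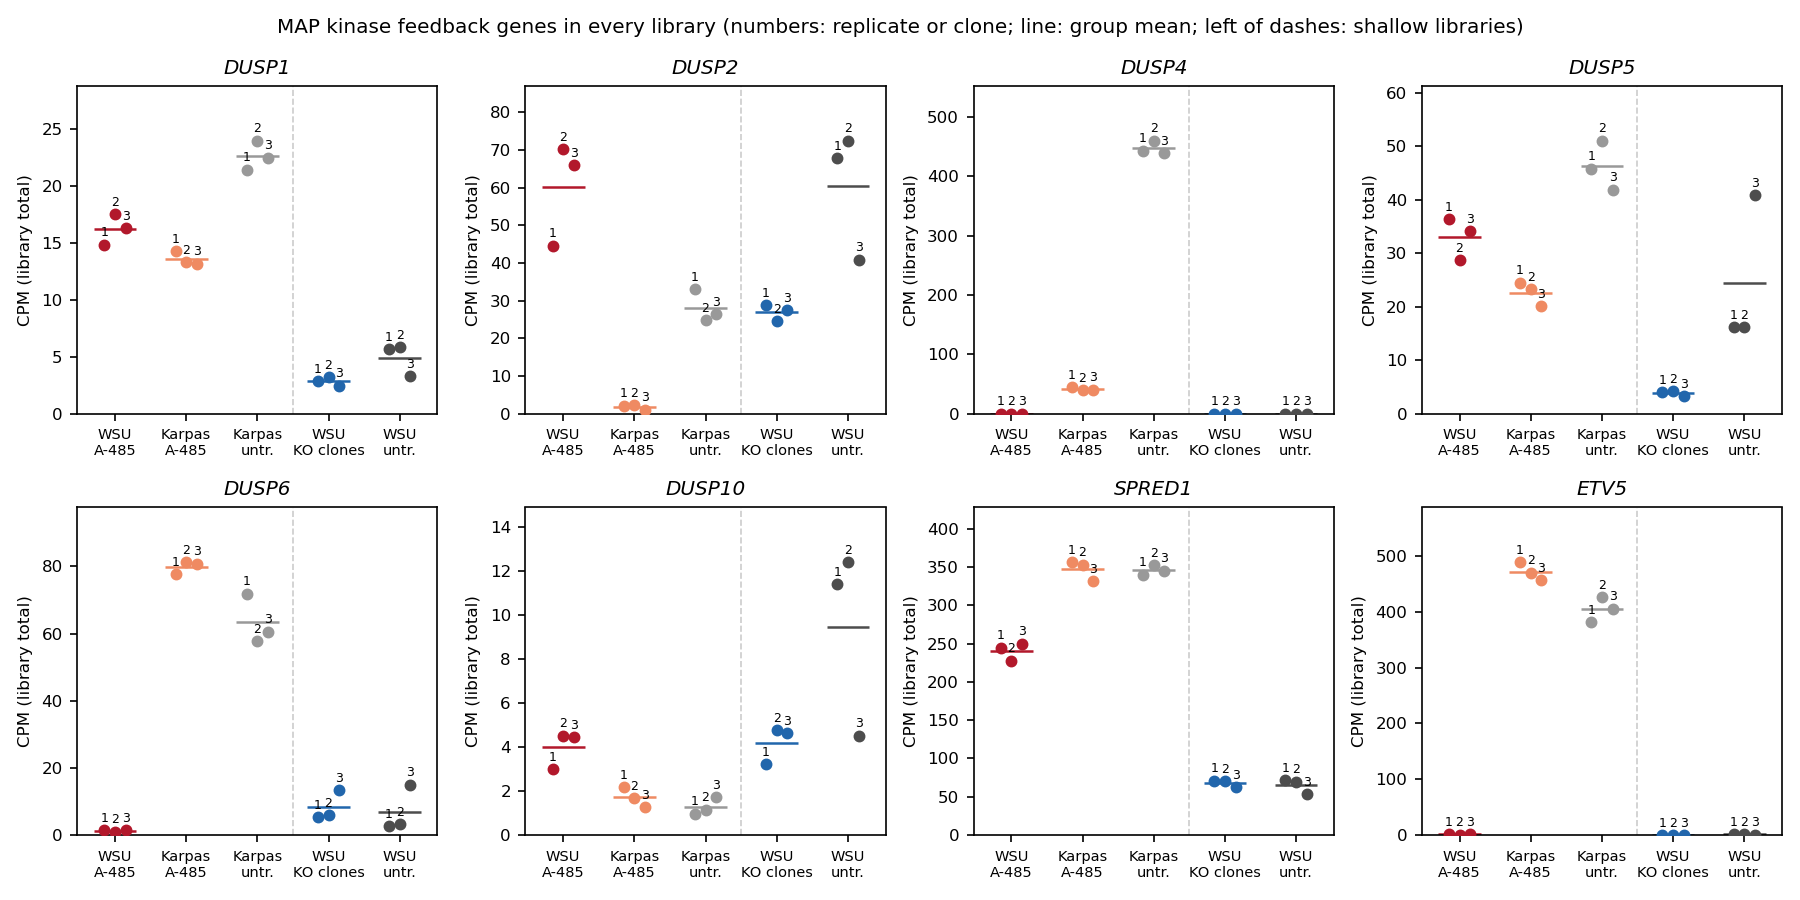
CPM of 8 members (y axis) in each library, by group, with points numbered by replicate or clone and lines at group means; the dashed line parts shallow (left) from deep libraries (right), whose levels are not compared. DUSP4 stands at 39.9 to 44.4 CPM in Karpas-422 with A-485, against 439 to 460 CPM in untreated Karpas-422, and at 0 in all WSU-DLCL2 libraries.

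The second comparison set the BCL11A knockout clones against untreated WSU-DLCL2. DUSP1, DUSP2, DUSP5 and ETV5 had lower levels in all 3 clones than in all 3 untreated libraries, with DUSP5 6.35-fold lower. DUSP10 lay low in the clones relative to untreated replicates 1 and 2 only. DUSP6 and SPRED1 overlapped between the groups, but relative to untreated replicates 1 and 2 only, DUSP6 lay higher in all 3 clones, as did 19.9% of all genes tested. DUSP4 and SPRY2 had 0 counts, and SPRY1 had 6 counts in the clones and 9 in the untreated libraries.

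DUSP5 had 3.98, 4.18 and 3.25 CPM in clones 1 to 3, against 16.1, 16.1 and 40.9 CPM in untreated replicates 1 to 3. The clones lay close together, and untreated replicate 3, the library with conflicting labels, was far above the other untreated libraries. DUSP2 had 28.8, 24.6 and 27.4 CPM in the clones, against 67.7, 72.5 and 40.8 CPM in the untreated libraries. DUSP1 had 2.86, 3.21 and 2.45 CPM in the clones, against 5.67, 5.79 and 3.25 CPM in the untreated libraries. For DUSP2 and DUSP1, replicate 3 was the untreated library nearest to the clones, and for DUSP1 it was almost level with clone 2.

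ETV5 was nearly silent in WSU-DLCL2: the clones held 1, 2 and 1 counts and the untreated libraries 32, 41 and 19 counts. Relative to the counts in genes, the clones were 24.4-fold lower, with a 95% exact counting interval of 9.20 to 91.4 that covers counting error only. DUSP10 had 3.24, 4.76 and 4.62 CPM in the clones, against 11.4, 12.4 and 4.52 CPM in the untreated libraries, replicate 3 again being apart. DUSP6 had 5.33, 5.96 and 13.4 CPM in the clones, against 2.67, 3.19 and 14.98 CPM in the untreated libraries, so that clone 3 and replicate 3 were both high. SPRED1 had 71.2, 70.3 and 62.5 CPM in the clones, against 71.6, 69.6 and 53.1 CPM in the untreated libraries, and overlapped.

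With all 3 untreated libraries, edgeR called 0 of 16152 genes, with 1117 at an unadjusted p under 0.05, and DESeq2 called 255 lower and 60 higher, 3 members (DUSP2, DUSP5 and ETV5) among the lower. The log2 differences were -0.79 ± 0.31 for DUSP1, -1.17 ± 0.24 for DUSP2, -2.67 ± 0.41 for DUSP5, -1.17 ± 0.42 for DUSP10 and -4.47 ± 0.40 for ETV5. The groups did not overlap, with the clones lower, for 4 of the 7 members tested and for 8.51% of all genes tested. Without replicate 3, 5 of 7 members were called lower and 0 higher, where 1.69% of 16607 genes were called lower and 0.422% higher. These were DUSP1 at -1.02 ± 0.17, DUSP2 at -1.39 ± 0.10, DUSP5 at -2.09 ± 0.15, DUSP10 at -1.51 ± 0.20 and ETV5 at -4.54 ± 0.40. The set was chosen because DUSP2 and DUSP5 were lower in this comparison, so the counts of members are a description. DUSP6, at 1.49 ± 0.47, and SPRED1, at -0.06 ± 0.08, were not called by edgeR, although DESeq2 called DUSP6 higher. The edgeR calls rested on untreated replicates 1 and 2. Those replicates differed far less (2.66 mean chi-square per gene) than the clones did from each other (20.3 to 40.9). Leaving out either of the 2 left 1 untreated library, so that the clones alone gave the spread and the lone library was taken to vary like them; 0 members and 1 gene in all were then called. Leaving out clone 3 left 3 members called. When any 1 of the 5 libraries was left out, the log2 differences ran from -1.46 to -1.31 for DUSP2, from -2.15 to -2.01 for DUSP5 and from -4.85 to -4.39 for ETV5. DCN averaged 40.6 CPM in the clones and 17.5 CPM in the untreated libraries, with EPCAM, KRT8, COL1A1 and COL1A2 near 0 in both groups, and its part in the result was not tested.

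**Figure D2:**
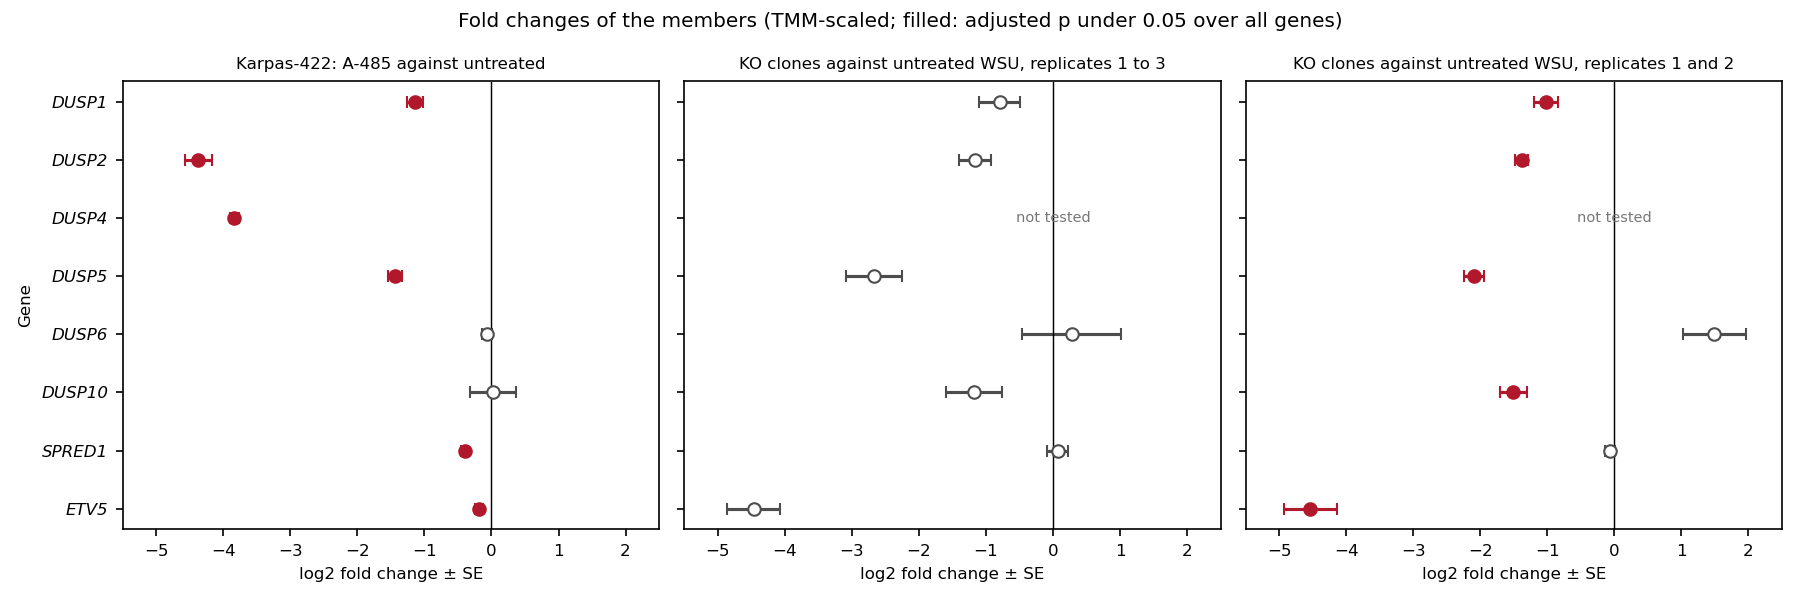
Log2 fold changes of the members with SE (x axis, TMM-scaled) in Karpas-422 with A-485 against untreated, and in the knockout clones against untreated WSU-DLCL2 with and without replicate 3; filled points were called over all genes. DUSP2 lies at -4.37, -1.17 and -1.39 in the 3 panels and DUSP5 at -1.44, -2.67 and -2.09.

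Levels in WSU-DLCL2 with A-485 are given beside those of untreated WSU-DLCL2 for reading only. DUSP2 had 44.5, 70.1 and 66.0 CPM with A-485, beside 67.7, 72.5 and 40.8 CPM in untreated cells. DUSP5 had 36.3, 28.6 and 34.1 CPM with A-485, beside 16.1, 16.1 and 40.9 CPM. DUSP1 had 14.8, 17.5 and 16.2 CPM with A-485, beside 5.67, 5.79 and 3.25 CPM. DUSP4 had 0 counts in all 9 WSU-DLCL2 libraries. Over the 6 deep libraries, 0 of 190669588 counts allows DUSP4 and SPRY2 a level of up to 0.0157 CPM each.

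Among the deep libraries, levels can be compared between genes per length. In the clones the order in CPM per kilobase of exon was DUSP2 at 13.9 ± 1.12 (SD, n = 3), SPRED1 at 8.23 ± 0.581, DUSP6 at 1.77 ± 0.965, DUSP5 at 1.45 ± 0.187, DUSP10 at 1.44 ± 0.289 and DUSP1 at 1.41 ± 0.189. The last 4 lay within each other's spread. In untreated WSU-DLCL2 DUSP2 was again first at 31.2 ± 8.84, followed by DUSP5 at 9.32 ± 5.46 and SPRED1 at 7.84 ± 1.23, which did not differ beyond their spread. DUSP10 at 3.24 ± 1.48, DUSP1 at 2.43 ± 0.710 and DUSP6 at 1.50 ± 1.50 also overlapped, and ETV5 was far below at 0.169 ± 0.0185. The order below DUSP2 rested on replicate 3, in which DUSP5 was at 15.6 and DUSP6 at 3.23. Without it SPRED1 was at 8.55 ± 0.170, above DUSP5 at 6.17 ± 0.00521 (SD, n = 2). DUSP10 at 4.09 ± 0.241, DUSP1 at 2.84 ± 0.0434 and DUSP6 at 0.633 ± 0.0792 then stood apart from each other. DUSP2, the lymphocyte phosphatase, was the highest member per length in both groups on this scale, with replicate 3 and without it.

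The third comparison set WSU-DLCL2 with A-485 against Karpas-422 with A-485. The choice of members did not use this contrast, but it used the low DUSP2 and DUSP5 levels of the same treated Karpas-422 libraries, so those 2 genes are described here without p-values. The 2 lines, each represented once, differed in which feedback genes they expressed: DUSP2 was 35.3-fold higher in WSU-DLCL2, while ETV5, DUSP6 and DUSP4 were much lower. This comparison shares the treated Karpas-422 libraries with the first, and the line and its response to A-485 cannot be told apart.

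ETV5 had 1.49, 0.564 and 1.64 CPM in WSU-DLCL2, against 489, 470 and 457 CPM in Karpas-422. DUSP6 had 1.49, 0.988 and 1.49 CPM in WSU-DLCL2, against 77.6, 81.3 and 80.8 CPM in Karpas-422. Neither pair of groups came near to overlapping. Of all genes tested, 39.8% did not overlap with WSU-DLCL2 lower. The log2 differences were -8.50 ± 0.12 for ETV5 (edgeR quasi-likelihood test, adjusted p = 1.97e-19, n = 3 each) and -5.83 ± 0.14 for DUSP6 (edgeR, adjusted p = 1.40e-16). DUSP4, at 0 counts in WSU-DLCL2 against 1046 in Karpas-422, was at least 283-fold lower, with 3 counts taken as the most that the WSU-DLCL2 group could hold. The bound covers counting error only, and whether these shallow libraries missed the gene for another reason was not tested. SPRED1, at 245, 228 and 250 CPM in WSU-DLCL2 against 357, 353 and 332 CPM in Karpas-422, differed by -0.45 ± 0.06 (edgeR, adjusted p = 9.46e-07).

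DUSP2 had 44.5, 70.1 and 66.0 CPM in WSU-DLCL2, against 2.05, 2.25 and 1.05 CPM in Karpas-422, a log2 difference of 5.14 ± 0.27. All 3 WSU-DLCL2 libraries were far above all 3 Karpas-422 libraries. Of all genes tested, 35.1% did not overlap with WSU-DLCL2 higher. The Karpas-422 level here is the low one of treated cells described above. DUSP5 differed by 0.62 ± 0.11, again from that treated level. DUSP10 was higher by 1.30 ± 0.28 (edgeR, adjusted p = 0.000470). DUSP1 was higher by 0.33 ± 0.12 (edgeR, adjusted p = 0.0211), a call that library sizes alone and the loss of treated Karpas-422 replicate 2 or 3 ended, at adjusted p = 0.0690, 0.0671 and 0.0675. In all, 4 of 8 members tested were called higher, DUSP2 and DUSP5 among them, and 4 lower, where 34.3% of the 12472 genes tested were called higher and 38.1% lower.

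**Figure D3:**
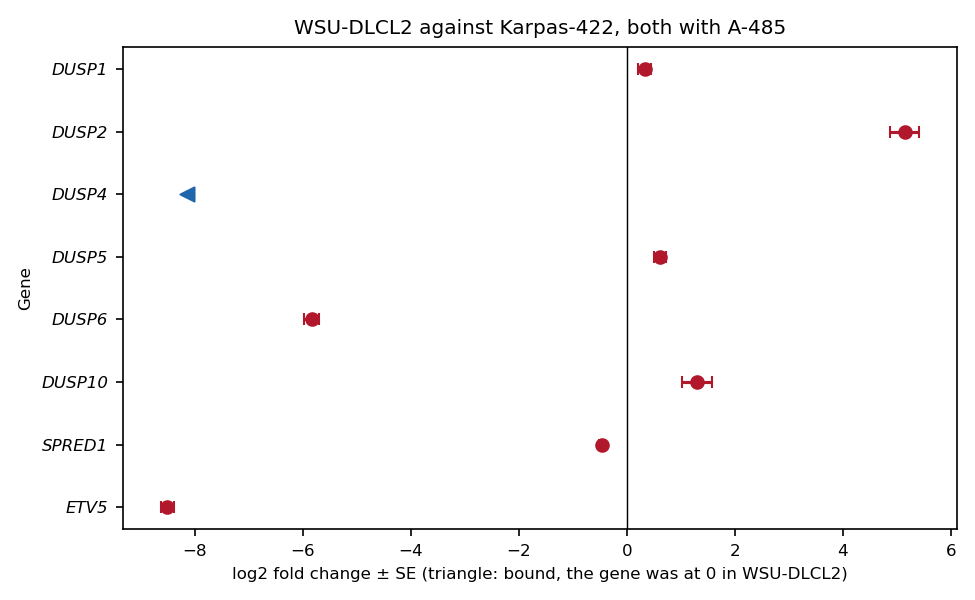
Log2 fold changes with SE (x axis) of the members in WSU-DLCL2 with A-485 against Karpas-422 with A-485. The triangle is a bound that covers counting error only. ETV5 and DUSP6 lie at -8.50 and -5.83, and DUSP2 at 5.14.

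The rest of the pathway was read from 5 lists of genes. In Karpas-422 with A-485 the immediate-early and nuclear targets of MAP kinases were called in both directions, 5 higher and 6 lower of 16 tested, with a median log2 difference of -0.04. Over all genes 37.6% were called higher and 33.7% lower, the shares against which this and the next lists are read. EGR1, an immediate-early zinc-finger factor, averaged 224 ± 23.2 CPM with A-485 and 11.4 ± 1.29 CPM in untreated cells (SD, n = 3 each), a log2 difference of 3.89 ± 0.10 (edgeR, adjusted p = 5.75e-13). EGR1 was thus higher in the same libraries in which 4 phosphatase genes were lower. SRF, the serum response factor, averaged 215 CPM with A-485 and 305 CPM in untreated cells (-0.91 ± 0.06, edgeR, adjusted p = 4.62e-09), and ELK1, its ETS partner, differed by -0.84 ± 0.08 (edgeR, adjusted p = 3.66e-07). MKNK1, a kinase downstream of ERK, was higher by 2.27 ± 0.20 (edgeR, adjusted p = 2.38e-07).

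Of the RAS-RAF-MEK-ERK cascade, 7 genes were called higher and 5 lower of 15 tested. RASGRP1, a RAS activator of lymphocytes, averaged 170 CPM with A-485 and 296 CPM in untreated cells (-1.20 ± 0.05, edgeR, adjusted p = 9.48e-11). MAP2K1, which encodes MEK1, differed by -0.57 ± 0.06 (edgeR, adjusted p = 1.35e-06), while the RAS regulators SOS2 and RASA2 were higher by 0.67 ± 0.06 and 0.70 ± 0.06 (edgeR, adjusted p = 3.86e-07 and 7.14e-08). Of the p38, JNK and ERK5 cascade, 5 genes were called higher and 4 lower of 12 tested. MAP3K7, the kinase TAK1, averaged 38.6 CPM with A-485 and 3.82 CPM in untreated cells (2.91 ± 0.16, edgeR, adjusted p = 1.64e-09). MAP2K6, a p38 activator, and MAPKAPK2, a p38 substrate, differed by -0.99 ± 0.14 and -0.63 ± 0.07 (edgeR, adjusted p = 2.95e-05 and 1.57e-06), and MAPK9, which encodes a JNK, by 0.74 ± 0.11 (edgeR, adjusted p = 3.64e-05).

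Of other ERK feedback and output genes, 2 were called higher and 1 lower of 6 tested. PHLDA1, an ERK-responsive gene, was higher by 1.51 ± 0.28 (edgeR, adjusted p = 0.000300). SPRED3, a relative of SPRED1, was called higher on low counts, 38 with A-485 and 2 in untreated cells (edgeR, adjusted p = 0.000166). SPRED2 differed by -0.24 ± 0.06 (edgeR, adjusted p = 0.00445), but by 0.17 with library sizes alone. DUSP16, a phosphatase of JNK, averaged 3.73 CPM with A-485 and 1.55 CPM in untreated cells (0.84 ± 0.26, edgeR, adjusted p = 0.00964) and was 1 of 2 other MAP kinase phosphatases tested, although DESeq2 called neither. With library sizes alone the lists' calls were 9 higher and 2 lower for immediate-early targets, 11 and 2 for the RAS cascade, 6 and 2 for the p38 and JNK cascade, and 4 and 0 for other feedback genes. Over all genes 54.6% were then called higher and 19.3% lower.

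In the knockout clones, none of these 5 lists held a gene called by edgeR with all 3 untreated libraries. At an unadjusted p under 0.05 there were 1 of 5 other phosphatases, 2 of 6 feedback genes, 3 of 20 in the RAS cascade, 1 of 15 in the p38 cascade and 10 of 20 immediate-early targets, where 6.92% of all genes were under it. DESeq2 called 1 gene lower among the other phosphatases, 1 among feedback genes, 1 in the RAS cascade, 0 in the p38 cascade and 6 among immediate-early targets, where it called 1.58% of all genes lower. Without replicate 3, 5 of 21 immediate-early and nuclear targets were called lower and 0 higher, where 1.69% of all genes were called lower and 0.422% higher, with a median log2 difference of -0.47, against 0.02 over all genes. The count called lower was 1 with a replicate block, 2 without clone 3, 6 without clone 1 and 10 without clone 2, where 0.44%, 0.469%, 3.58% and 9.6% of all genes were. They included SRF at -0.72 ± 0.08, JUNB at -0.74 ± 0.10 and FOSB at -1.78 ± 0.27 (edgeR, adjusted p = 0.0184, 0.0270 and 0.0334). JUNB and FOSB are partners in AP-1. EGR2, a relative of EGR1, had 0, 3 and 0 counts in the clones, against 43 and 66 in untreated replicates 1 and 2 (edgeR, adjusted p = 0.0238), while replicate 3 had 1. Of 5 other phosphatases, 2 were called lower: DUSP22 at -1.43 ± 0.12 (edgeR, adjusted p = 0.00802) and DUSP8 at -4.37 ± 0.60 (edgeR, adjusted p = 0.0270), from 6 counts in the clones. With replicate 3 included, DUSP22 overlapped, at 26.9 to 35.5 CPM in the clones and 24.1 to 82.1 CPM in the untreated libraries (edgeR, adjusted p = 0.737).

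In the same fit 0 of 20 genes of the RAS-RAF-MEK-ERK cascade, 0 of 15 of the p38, JNK and ERK5 cascade and 0 of 7 other feedback genes were called by edgeR. An unadjusted p under 0.05 was found for 7, 2 and 4 of them, where 19.0% of all genes were under it. NRAS, which encodes a RAS protein, differed by 0.04 ± 0.07 (edgeR, adjusted p = 0.790). DESeq2 called 1 higher and 3 lower in the RAS cascade, and 1 lower in each of the other 2 lists, where it called 2.44% of all genes higher and 4.5% lower. ETV4, the relative of ETV5, differed by -1.50 ± 0.39 (edgeR, adjusted p = 0.129). Leaving out untreated replicate 1 or 2, with the spread again from the clones alone, left 0 genes called among the immediate-early targets and the other phosphatases, at medians of -0.50 and -0.46 for the targets and -1.30 and -1.29 for the phosphatases.

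**Figure D4:**
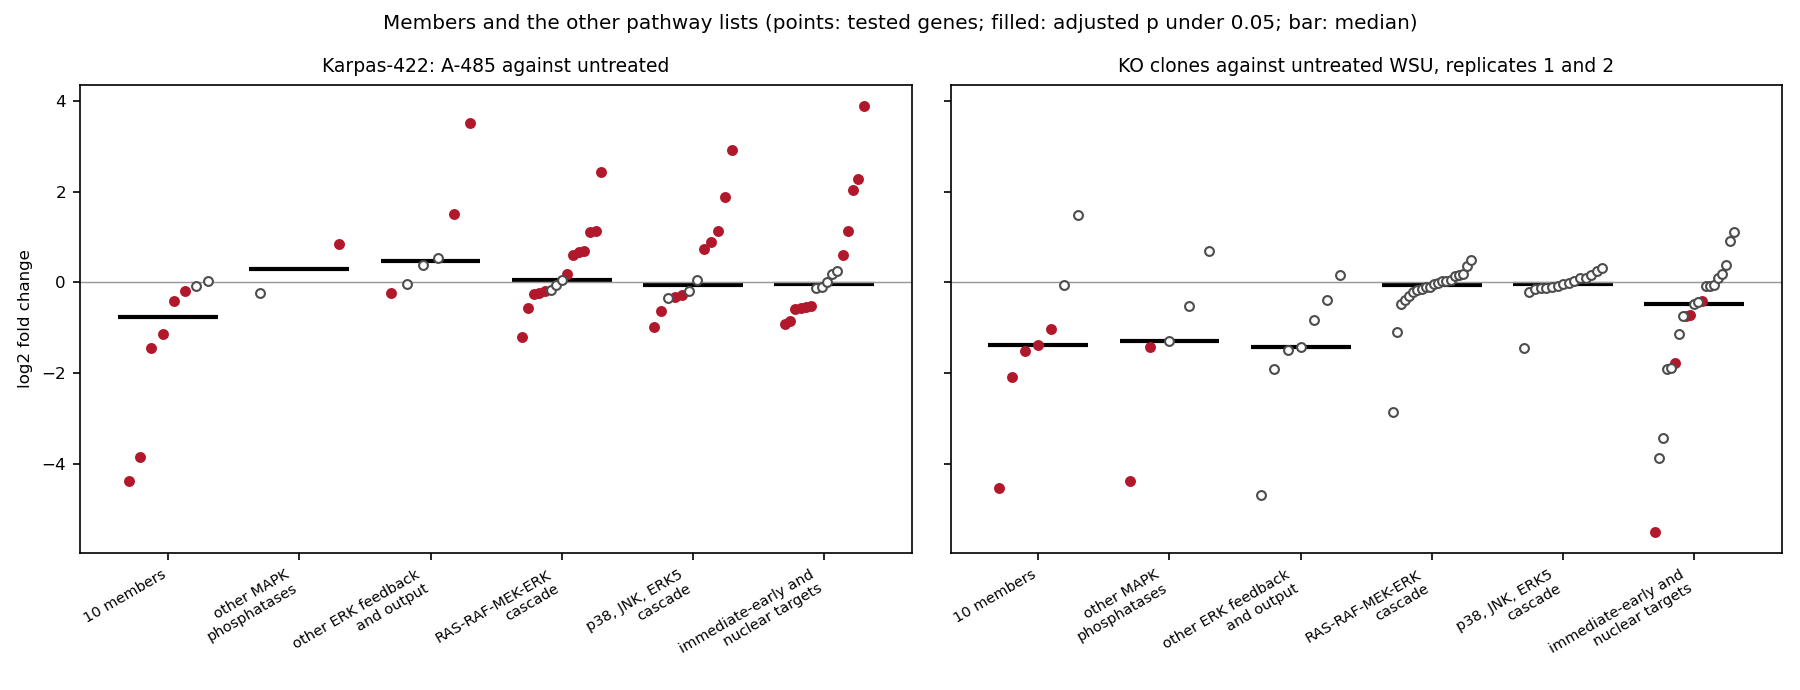
Log2 fold changes (y axis) of the tested members and of 5 pathway lists in Karpas-422 with A-485 against untreated (left) and in the knockout clones against untreated replicates 1 and 2 (right); filled points were called and bars are medians. The members' medians are -0.77 and -1.39.

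Between the treated lines, 5 of 5 tested feedback and output genes outside the member set were called lower in WSU-DLCL2, where 38.1% of all genes were, with a median log2 difference of -3.10. SPRY4, a Sprouty gene, differed by -4.39 ± 0.41 (edgeR, adjusted p = 2.82e-08), from 4 counts in WSU-DLCL2 against 117 in Karpas-422. ETV4, with 1 count in WSU-DLCL2 against 42 in Karpas-422, was called lower as well. SPRED2 and PHLDA1 differed by -2.62 ± 0.10 and -3.10 ± 0.38 (edgeR, adjusted p = 4.83e-14 and 1.14e-06), and EGR1 by -4.25 ± 0.10 (edgeR, adjusted p = 7.85e-17). Of the RAS-RAF-MEK-ERK cascade, 3 genes were called higher and 6 lower of 16 tested. RASGRP3, a RAS activator of B cells, was higher by 5.99 ± 0.25 (edgeR, adjusted p = 3.95e-13), while the RAS inhibitor gene NF1, the RAS activator gene SOS2 and the RAF kinase gene BRAF were lower, at -2.79 ± 0.09, -1.40 ± 0.06 and -0.85 ± 0.05 (edgeR, adjusted p = 1.18e-14, 7.79e-13 and 4.98e-11). Of the p38, JNK and ERK5 cascade, 2 genes were called higher and 6 lower of 12 tested, with MAPKAPK2 at 1.08 ± 0.08 and MAP2K6 at -2.32 ± 0.17 (edgeR, adjusted p = 3.45e-09 and 1.26e-09). Of the immediate-early and nuclear targets, 4 were called higher and 11 lower of 16 tested, with IER5, an immediate-early gene, at 1.17 ± 0.09 (edgeR, adjusted p = 1.60e-09). Both other phosphatases tested were called higher, DUSP16 by 2.65 ± 0.15 and DUSP7, a cytoplasmic ERK phosphatase, by 1.02 ± 0.41 (edgeR, adjusted p = 1.73e-11 and 0.0444). The DUSP7 call was lost with library sizes alone and, at differences of 0.51 to 1.11, without any 1 library other than WSU-DLCL2 replicate 1. Among all genes 34.3% were called higher.

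The genes most like DUSP2 and DUSP5 across the 15 libraries were ranked by Pearson's r of log2(CPM + 1), centred within each kind of library, over 5282 genes. For DUSP2 they were XPOT at 0.980, EIF3A at 0.970 and PMS2CL at 0.966. For DUSP5 they were SORL1 at 0.924, JUND at 0.908 and ZNF770 at 0.864. The libraries share groups and depth, so these values describe likeness over 5 groups and carry no p. Within the 6 deep libraries PMS2CL had 0.632 with DUSP2, and within the 9 shallow ones JUND and ZNF770 had 0.512 and 0.577 with DUSP5.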

How the data were processed

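Read counts per gene, as whole numbers and not normalized, were deposited by the authors for 15 libraries. The submitters' processing notes name STAR 2.5.3a, RSEM and GRCh37 (hg19); the sources used here give no annotation, counter or strand. Reads of a gene and of an overlapping or antisense neighbour may therefore be mixed. The 5 summary lines of each file stayed out of library sizes; symbols and transcript numbers came from a gene table and GENCODE 29. Of 17 sample records, 3 are runs of 1 library, untreated WSU-DLCL2 replicate 3.

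CPM were computed on the counts in genes. Comparisons used edgeR 4.0.16 in R 4.3.3 with TMM scaling, filterByExpr and robust two-sided quasi-likelihood tests. Benjamini-Hochberg adjustment covered all genes kept, at 0.05. The same fits were also run on simulated counts, drawn with equal spread for all genes and groups. SE is the absolute log2 fold change over the root of F. DESeq2 1.42.0, other scalings, no filter, a replicate block and leaving out each library were alternatives. Replicates were compared over genes with at least 20 counts, and likeness over genes of at least 10 CPM; no pair was counted as 1 sample.

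All members are named, with up to 4 called genes per list and comparison. The members and lists were chosen with earlier results of these data known. DUSP14 is not analysed here. Some genes that the rule names are not reported here. JUND, XPOT, EIF3A, PMS2CL, SORL1 and ZNF770 are named by the likeness rule. Intervals and floors cover counting error only, since counts are of reads.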

Additional observations from a re-analysis of the deposited data

How the results depend on the processing

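Of 322 values recomputed for the members in the 4 fits, 277 kept their direction and their side of the threshold, 22 were no longer called, 11 became called and 12 changed sign. In Karpas-422 the sign changes were DUSP10 (-0.025 with DESeq2 size factors, -0.038 with DESeq2, and -0.18 to 0.28 when 1 library was left out, negative without A-485 replicate 1 or untreated replicate 1 or 2) and, with library sizes alone, DUSP6 (0.33), SPRED1 (0.0078) and ETV5 (0.23). Library sizes alone gave 2 members called higher and 2290 genes called lower; ETV5 lost its call without A-485 replicate 2 or 3 or untreated replicate 2. The cause was not tested.

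In the clones against all 3 untreated libraries, DESeq2 called 3 members and 255 genes lower and 60 higher, and no filter gave 2, 19 and 1. Leaving out 1 library gave 0 to 5 members and 0 to 281 genes called lower and 0 to 70 higher, the highest without untreated replicate 3. DUSP6 then lay at -0.28 to 1.49, negative without clone 3 (-0.28) or untreated replicate 1 (-0.10) or 2 (-0.048), and SPRED1 at -0.061 (without untreated replicate 3) to 0.15. Against untreated replicates 1 and 2, DESeq2 called 1 member (DUSP6, 1.48) higher, 748 genes lower and 405 higher, and gave ETV5 no adjusted p, while no filter gave 613 and 222. Leaving out 1 library gave 0 to 5 members, 1 to 1558 genes lower and 0 to 1462 higher, the highest gene counts without clone 2. With a replicate block, 2 members (DUSP2 and DUSP5), 73 genes lower and 16 higher were called there. The clone and replicate numbers share only a number (correlations of same-numbered deviations 0.07, 0.10 and 0.27 for the clones, 0.00, 0.14 and -0.07 in Karpas-422, and -0.34, -0.24 and 0.05 between the lines).

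Levels per length without untreated replicate 3 were computed after the data had been seen. In untreated WSU-DLCL2 DUSP5 then fell from 9.32 to 6.17 and DUSP6 from 1.50 to 0.633. With the longest transcript as length, DUSP2 was at 15.9 and ETV5 at 0.0098 in the clones, and ETV5 at 0.238 in untreated WSU-DLCL2. Likeness fell to 0.63 for PMS2CL in the deep libraries alone, and to 0.51 for JUND and 0.58 for ZNF770 in the shallow ones. SPRY1, SPRY2, ETV5 in WSU-DLCL2 and DUSP10 in Karpas-422 are limited by their few counts.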
